A study of Homo sapiens with 6 samples.

Results

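The inflammatory chemokines described here are 10 human genes given as a list of CC and CXC chemokines of the NF-kB response: CCL2, CCL3, CCL4, CCL5, CCL20, CXCL1, CXCL2, CXCL3, CXCL5 and CXCL8. Of these, 9 were analysed among 17042 genes, all 9 passed the filter on low counts that kept 13405 genes for testing, and CXCL5 was not analysed here. All cells were of 1 human line, THP-1, which grew out of a monocytic leukaemia. The KD group (3 libraries) received small interfering RNA (siRNA) against RP11-184M15.1, a long noncoding RNA, delivered with a lipid transfection reagent to THP-1 macrophages before IL-4 was added. In the control group (3 libraries) RP11-184M15.1 was not targeted, and the labels do not say whether a control siRNA or the reagent was given. Both groups had been differentiated alike, with PMA, a phorbol ester (100 ng/mL, 24 hours), and then with interleukin-4 (IL-4; 20 ng/mL, 24 hours). The level of RP11-184M15.1 is not analysed here, so the knockdown itself was not checked.

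Chemokines are small secreted proteins that guide leukocytes along a gradient by binding G protein-coupled receptors. In macrophages the inflammatory ones are switched on when signals such as bacterial products or cytokines release NF-kB to the nucleus, where it binds kB sites near their start sites, and many of their mRNAs are short-lived because AU-rich elements in the 3′ UTR recruit decay factors. PMA activates protein kinase C and through it NF-kB and AP-1, whereas IL-4 acts through STAT6 and induces another set of chemokines, among them CCL17 and CCL22.

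The gene sequences bear on how far the members can be told apart and on what their control regions share. CXCL1, CXCL2 and CXCL3 arose as copies of each other on chromosome 4 and differ at few bases. Part of the reads from one could therefore be counted for another. The second coding exon is shown for each because it has the same length in all of them and can be compared base by base, with capitals at the 8 positions where the 3 genes differ (GRCh38, GENCODE 29, read 5′ to 3′ on the gene's strand).
CXCL1, chr4:73869669-73869792, plus strand: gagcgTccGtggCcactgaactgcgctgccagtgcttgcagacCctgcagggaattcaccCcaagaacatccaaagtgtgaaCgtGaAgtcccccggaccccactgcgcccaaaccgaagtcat
CXCL2, chr4:74098799-74098922, minus strand: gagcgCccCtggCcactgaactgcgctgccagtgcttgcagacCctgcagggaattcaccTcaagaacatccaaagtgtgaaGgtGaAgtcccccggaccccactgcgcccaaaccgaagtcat
CXCL3, chr4:74038290-74038413, minus strand: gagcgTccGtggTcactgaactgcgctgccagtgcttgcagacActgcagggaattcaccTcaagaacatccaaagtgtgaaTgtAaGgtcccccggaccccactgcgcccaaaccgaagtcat
Over these 124 bases CXCL1 and CXCL2 were 96.8% identical, CXCL1 and CXCL3 95.2% and CXCL2 and CXCL3 94.4%. Over the whole coding sequence of 321 bases the same pairs were 93.5%, 90.7% and 94.4% identical. Counted in 31-base words of the annotated transcripts, 22.4% of the words of CXCL2, 14.4% of those of CXCL1 and 9.54% of those of CXCL3 also occur in another gene. CCL3 shares 20.9% of its words with CCL3L1 and CCL4 shares 19.6% with CCL4L2, so their counts are uncertain in the same way. CCL5 shares 21.8% with several unrelated transcripts, and it and CCL3 each overlap an annotated antisense gene, whose reads cannot be told apart without strand. CCL2, CCL20 and CXCL8 share no such word with any other gene.

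RefSeq promoter windows (GRCh38.p14, 250 bases before to 50 after the annotated start) were matched for 7 of the 10 genes: CCL3, CCL20, CXCL1, CXCL2, CXCL3, CXCL5 and CXCL8. The longest run of bases common to the 5 CXC promoters was GGAATTTCC, which has the form of a kB site. It is shown in capitals with 10 bases on either side, next to the match of CCL20 to the kB pattern. It starts 77 to 91 bases before the start site in the 5 CXC genes.
CXCL8, chr4:73740468-73740496, plus strand: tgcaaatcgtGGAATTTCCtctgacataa
CXCL1, chr4:73869305-73869333, plus strand: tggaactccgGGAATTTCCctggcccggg
CXCL2, chr4:74099254-74099282, minus strand: tggagctccgGGAATTTCCctggcccggg
CXCL3, chr4:74038749-74038777, minus strand: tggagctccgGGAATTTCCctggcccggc
CXCL5, chr4:73998749-73998777, minus strand: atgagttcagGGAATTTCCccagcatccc
CCL20, chr2:227813751-227813780, plus strand: gttgatcaatGGGGAAAACCccatgtggca
The run GGAATTTCC is in 0.599% of the promoters of the genes in the table, but it was found by comparing these 5 promoters, so all of them hold it by construction. The kB pattern GGGNNNNNCC fixes fewer bases, but the stretch printed for CXCL8 has no GGG on either strand and does not match it. Searched on both strands, the pattern occurred in the promoters of 7 of 7 of the chemokine genes, in CXCL8 at another site. It also occurred in those of 78.4% of all genes in the table. That pattern therefore hardly separates these chemokines from other genes. The AP-1 pattern TGANTCA was found in 1 of the 7, CXCL8, against 7.38% of all genes, and the STAT6-like pattern TTCNNNNGAA in 0 of the 7, against 6.87%.

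The AU-rich nonamer TTATTTATT was searched on the sense strand of the longest 3′ UTR in GENCODE 29. It occurs in 4 of the 10 genes, all of them CXC chemokines, and in 9.32% of all genes with an annotated 3′ UTR. CXCL2 holds 5 copies, overlapping ones included, CXCL1 holds 3, and CXCL3 and CXCL8 hold 1 each. The first copy in each gene is shown in capitals with its flanks.
CXCL1: tcttctatTTATTTATTtattcatt
CXCL2: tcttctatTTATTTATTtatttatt
CXCL3: gtcagttgTTATTTATTcaaattat
CXCL8: gtaaagtaTTATTTATTtgaatcta
The CC members and CXCL5 hold no copy of the nonamer. The shorter AU-rich pentamer ATTTA does occur in most of them: 11 times in CXCL5, 4 in CCL3, 3 in CCL20, 2 in CCL4, 1 in CCL2 and 0 in CCL5. Its share among all genes is not given here. The 1118 tested genes with the nonamer had a median log2 fold change of 0.01 in KD over control libraries, and the 10779 tested genes with a 3′ UTR without it had a median of -0.00.

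The library totals were between 12029360 and 14181343 counts in KD libraries and between 10450043 and 12113848 in control libraries. Levels are given as CPM, the count of a gene divided by the library total and brought to a common scale, with totals adjusted by TMM factors, and 3 counts in a library are worth 0.212 to 0.287 CPM. Control replicate 1 stood apart from the other libraries: it was the highest or lowest of the 6 in 45.3% of tested genes, against 26.9% to 36.6% for the others. Its mitochondrially encoded share of counts was 2.31%, beside 2.39% to 2.48% in KD libraries and 2.75% and 3.01% in the other control libraries. The labels do not state that the replicates were separate cultures, and every p-value here reflects only how these 6 libraries vary, a variation that may be technical.

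Of the 9 chemokine genes, 0 passed the threshold of an adjusted p under 0.05 in edgeR's quasi-likelihood test, against 2.83% of all tested genes. DESeq2 and limma-voom also called 0 of them, and at an unadjusted p under 0.05 edgeR gave 1 higher and 0 lower in KD libraries, where all tested genes gave 6.89% higher and 8.21% lower. Separation of the groups, with every KD library on one side of every control library, was seen for 1 of the 9 genes, against 20% of all tested genes. Both single genes were CCL20. The log2 fold change was above 0 for 5 genes and below 0 for 4, with a median of 0.02, beside -0.00 over all tested genes. The median size of the log2 fold change, leaving out its sign, was 0.16 for the 9 genes and 0.09 for all tested genes, and 3 of the 9 (CCL20, CXCL2 and CXCL3) had under 50 counts in every library.

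**Figure D1:**
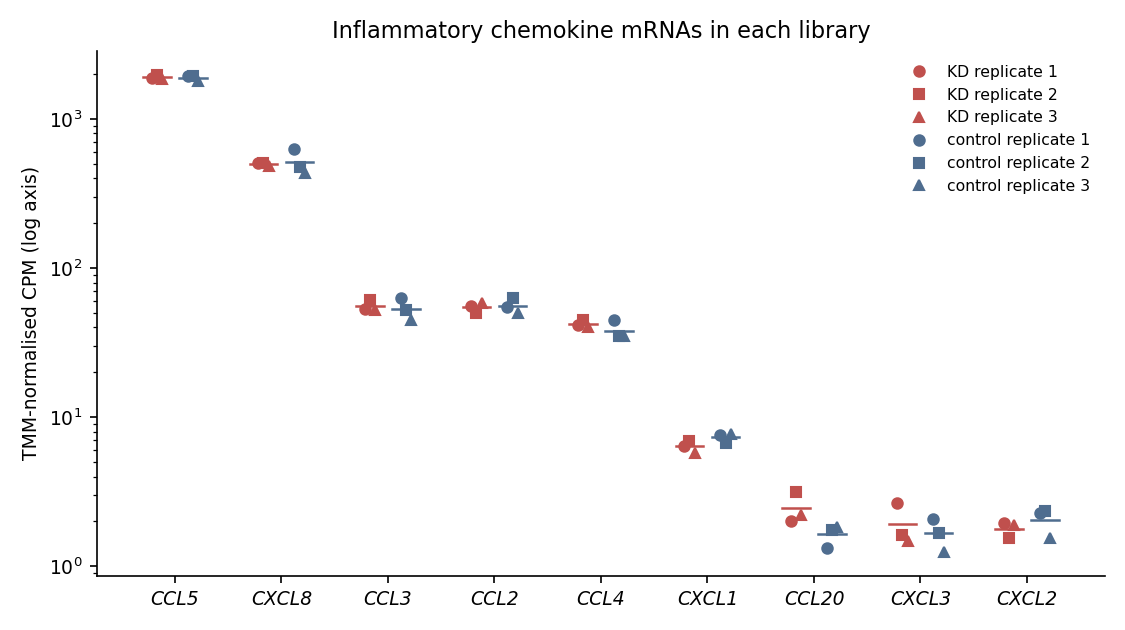
Level of each of the 9 analysed chemokine genes in each library, in TMM-normalised CPM on a log axis, with KD libraries in red to the left of control libraries in blue and a bar at each group's mean (n = 3 each). The groups overlap for every gene but CCL20, and CXCL8 in control replicate 1, at 625 CPM, sits above the other 5 libraries.

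Compared per kilobase of annotated exon, which allows different genes to be set side by side, CCL5 was the most abundant of the 9, at 1265 ± 40.5 CPM per kb in KD libraries and 1246 ± 57.1 in control libraries (SD, n = 3 each). CXCL8 followed at 219 ± 5.40 CPM per kb in KD libraries and 225 ± 43.8 in control libraries. CCL3, at 37.2 ± 3.02 in KD libraries and 35.6 ± 6.01 in control libraries, overlapped CCL2, at 27.6 ± 2.24 in KD libraries and 28.1 ± 3.25 in control libraries. CCL4 came next with 20.8 ± 1.17 CPM per kb in KD libraries and 18.7 ± 2.74 in control libraries, and CXCL1 after it with 4.91 ± 0.462 in KD libraries and 5.67 ± 0.435 in control libraries. CCL20, CXCL2 and CXCL3 were lowest, between 0.564 and 1.98 CPM per kb over all libraries, and the neighbours in this order overlapped. In CPM, CCL5 ranked 40 and CXCL8 ranked 272 among the 17042 genes. The members' CPM summed to between 2513 and 2658 in KD libraries and between 2362 and 2740 in control libraries. CCL5 made up 74.3 ± 0.324% of that sum in KD libraries and 73.8 ± 2.61% in control libraries, and CXCL8 made up 19.3 ± 0.301% in KD libraries and 19.9 ± 2.48% in control libraries (SD, n = 3 each).

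CCL2, on chromosome 17, is the main attractant of blood monocytes and acts through CCR2. It stood at 56.0, 49.9 and 58.5 CPM in KD libraries and at 54.4, 62.7 and 50.04 CPM in control libraries. The groups overlapped, and the highest and the lowest library were control replicate 2 and KD replicate 2. The log2 fold change was -0.03 ± 0.08 (SE), with a 95% interval from -0.20 to 0.14 and an adjusted p of 0.906 in edgeR.

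CCL5, a ligand of CCR1 and CCR3 that draws T cells and monocytes, was read with the most counts of the 9 genes. Its level was 1889, 1982 and 1866 CPM in KD libraries and 1941, 1927 and 1785 CPM in control libraries. The groups overlapped, with KD replicate 2 highest and control replicate 3 lowest. The log2 fold change was 0.02 ± 0.05 (SE; edgeR adjusted p = 0.879), and the 95% interval of the fold, KD over control, ran from 0.948 to 1.09. This was the narrowest interval of the 9 genes.

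CCL3 and CCL4, also called MIP-1α and MIP-1β, lie close together on chromosome 17 and attract monocytes and T cells, CCL3 among others through CCR1. CCL3 stood at 53.4, 60.7 and 52.6 CPM in KD libraries and at 62.5, 52.4 and 44.7 CPM in control libraries. The control libraries span the KD libraries on both sides, with control replicate 1 highest and control replicate 3 lowest, and the log2 fold change was 0.06 ± 0.09 (SE; 95% interval -0.14 to 0.27; edgeR adjusted p = 0.813). CCL4 stood at 41.6, 45.0 and 40.5 CPM in KD libraries and at 44.5, 34.8 and 34.9 CPM in control libraries. Control replicate 1 lay within the KD range and the other control libraries below it. The log2 fold change of CCL4 was 0.16 ± 0.09 (SE; 95% interval -0.03 to 0.35), with an unadjusted p of 0.0908 and an adjusted p of 0.427 in edgeR. With their copies CCL3L3 and CCL4L2 added to them, the log2 fold changes were 0.05 ± 0.10 for CCL3 and 0.15 ± 0.08 for CCL4 (SE), neither past the threshold.

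CCL20, on chromosome 2, is the ligand of CCR6 and attracts immature dendritic cells and some lymphocytes. It was read with 25, 45 and 27 counts in KD libraries and with 14, 21 and 19 in control libraries, or 2.02, 3.16 and 2.22 CPM in KD libraries and 1.32, 1.76 and 1.83 CPM in control libraries. All KD libraries were above all control libraries, with KD replicate 2 highest and control replicate 1 lowest. The log2 fold change was 0.60 ± 0.28 (SE; 95% interval 0.01 to 1.19). The unadjusted p was 0.0482 and the adjusted p 0.326 in edgeR, so the difference did not pass the threshold, and at these counts the counting error alone is 17.6% of the mean in KD libraries and 23.6% in control libraries.

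CXCL8 (interleukin-8), which attracts neutrophils through CXCR1 and CXCR2, was the most abundant CXC member. Its level was 502, 507 and 484 CPM in KD libraries and 625, 477 and 436 CPM in control libraries. The control libraries again span the KD libraries on both sides. The means were 498 ± 12.3 CPM in KD libraries and 512 ± 99.5 CPM in control libraries (SD, n = 3 each), and the log2 fold change was -0.04 ± 0.09 (SE; 95% interval -0.23 to 0.15; edgeR adjusted p = 0.881). The spread was 2.47% of the mean in KD libraries and 19.4% in control libraries, where counting error would give 1.246% in KD libraries and 1.34% in control libraries. Whether the spread itself differed was not tested.

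CXCL1, CXCL2 and CXCL3, the near-identical genes whose exons are printed above, attract neutrophils through CXCR2. CXCL1 stood at 6.40, 6.94 and 5.75 CPM in KD libraries and at 7.65, 6.70 and 7.70 CPM in control libraries. Control replicate 2 fell between the KD libraries, and the log2 fold change was -0.20 ± 0.14 (SE; 95% interval -0.49 to 0.09; edgeR adjusted p = 0.546). CXCL2 had 1.94, 1.54 and 1.89 CPM in KD libraries and 2.27, 2.35 and 1.54 CPM in control libraries, with a log2 fold change of -0.21 ± 0.27 (SE; edgeR adjusted p = 0.791). CXCL3 had 2.67, 1.61 and 1.48 CPM in KD libraries and 2.08, 1.68 and 1.251 CPM in control libraries, with a log2 fold change of 0.20 ± 0.31 (SE; edgeR adjusted p = 0.831). The groups overlapped for both. Summed to 1 gene, which does not depend on how reads were split among these 3, though a few words are also shared with CXCL1P1, the genes had a log2 fold change of -0.13 ± 0.12 (SE; edgeR adjusted p = 0.651), so the sign of CXCL3 alone was not that of the sum.

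Several of these values turned on control replicate 1. Relative to the mean of the other control libraries it held 1.37 times the CXCL8, 1.29 times the CCL3 and 1.28 times the CCL4, but 1.05 times the CCL5, 0.965 times the CCL2 and 0.737 times the CCL20. Without it, CCL4 was higher in KD libraries by a log2 fold change of 0.28 ± 0.07 (SE; 95% interval 0.13 to 0.44; edgeR adjusted p = 0.0322) and was the 1 chemokine gene of the 9 past the threshold, against 3.96% of all genes tested that way. CXCL8 then changed sign, to 0.13 ± 0.04 (SE; 95% interval 0.03 to 0.22; unadjusted p = 0.00989, adjusted p = 0.130 in edgeR), and CCL3 stood at 0.19 ± 0.08 (SE; unadjusted p = 0.0243, adjusted p = 0.211 in edgeR). CCL20 stood at 0.47 ± 0.31 (SE; edgeR adjusted p = 0.506). The groups then did not overlap for CCL3, CCL4, CCL20 and CXCL8, 4 of the 9 genes, against 32.4% of all genes, and 3 were higher and 0 lower at an unadjusted p under 0.05, against 7.48% and 8.7% of all genes. Leaving out control replicate 3 instead gave log2 fold changes of -0.14 ± 0.08 for CXCL8 and -0.04 ± 0.08 for CCL3 (SE), both below 0. That of CCL4 was then 0.11 ± 0.09 (SE), and none of these passed the threshold in edgeR. Which of the control libraries is typical of the control cells cannot be read from 3 libraries.

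**Figure D2:**
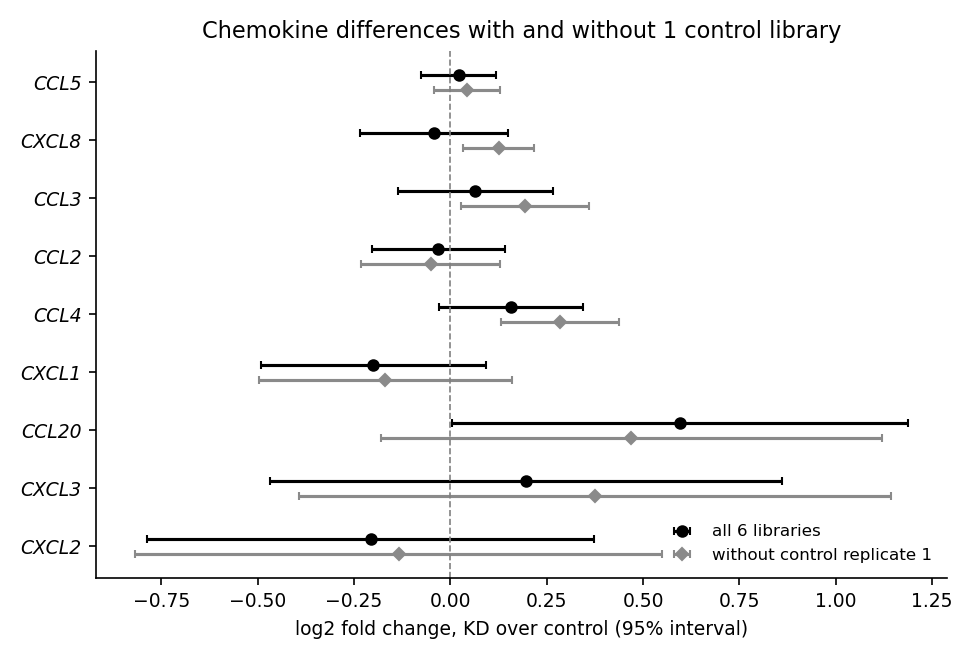
Log2 fold change of each chemokine gene, KD over control, with its 95% interval, from all 6 libraries (black circles) and without control replicate 1 (grey diamonds). With all 6 libraries the interval of CCL20 alone lies off 0, starting at 0.01; without control replicate 1 the intervals of CCL4, CXCL8 and CCL3 lie above 0.

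**Figure D3:**
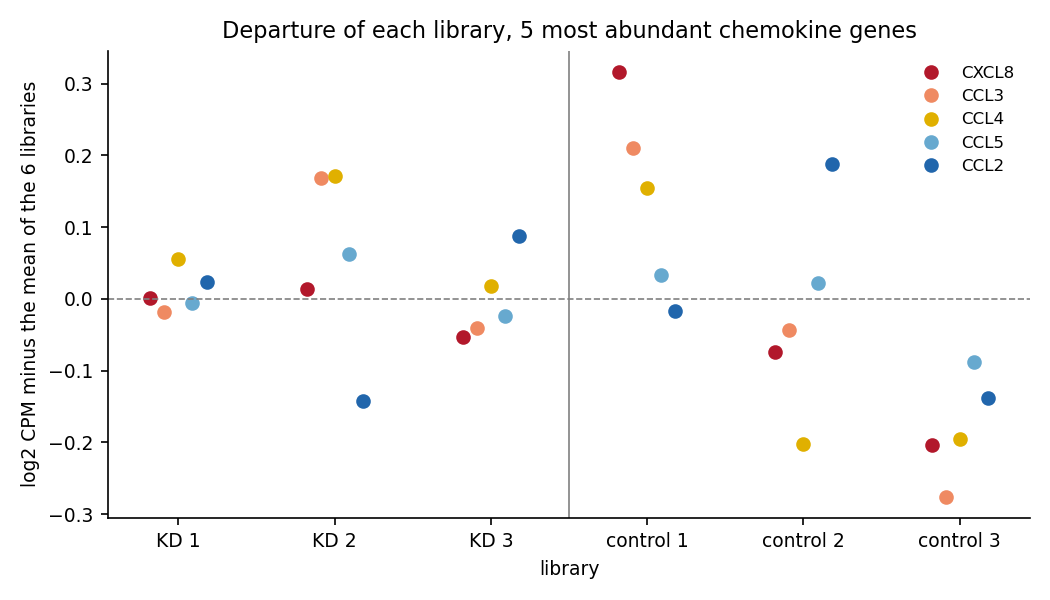
Log2 CPM of the 5 most abundant chemokine genes in each library, less the mean over the 6 libraries, with KD libraries left of the line and control libraries right of it. CXCL8, CCL3 and CCL4 are high in control replicate 1 and low in control replicate 3, CCL4 also in control replicate 2, while CCL5 stays close to 0 and CCL2 is highest in control replicate 2.

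The profile of CCL20, which had the widest range over the 6 libraries, was set against 8840 tested genes with a mean of at least 10 CPM by the root mean square difference of centred log2 CPM. That profile rests on 14 to 45 counts a library. Its spread was 24.6% of the mean in KD libraries and 16.7% in control libraries, beside counting errors of 17.6% and 23.6%. The 5 nearest were GSE1, FARP2, CCND3, LIPG and NPIPA1, at 0.146 to 0.177, and CCND3, a D-type cyclin, stood at 398, 415 and 393 CPM in KD libraries and 244, 293 and 286 CPM in control libraries. The abundant chemokine genes were farther from CCL20, at 0.341 for CCL5 and 0.438 for CXCL8. For CXCL8, a profile chosen after its values were seen, the 5 nearest of 8839 genes were BBS4, LPAR6, PLRG1, SSR2 and ZKSCAN5, at 0.0266 to 0.0430. LPAR6 stood at 124, 125 and 125 CPM in KD libraries and at 155, 122 and 113 CPM in control libraries, again highest in control replicate 1. In that order CCL3 ranked 169, CCL4 ranked 754 and CCL5 ranked 1604, and CCL2 ranked 5829. All these distances rest on the same 6 libraries.

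The members lie on 3 chromosomes. The stretch of chromosome 4 from CXCL8 to CXCL2 (73740506 to 74099293, GRCh38) held 6 analysed genes, all chemokines. Of these, 5 were tested and 0 passed the threshold in edgeR, with log2 fold changes between -0.21 and 0.20. On chromosome 17, the stretch from CCL2 to CCL1 (34255218 to 34363231) had 4 tested genes and the stretch from CCL5 to CCL4L2 (35871491 to 36212878) had 6, with 0 past the threshold in either. DESeq2 and limma-voom called 0 genes of the 3 stretches, and edgeR gave 1 of them, CCL13, an unadjusted p under 0.05. Beside CCL2, the related monocyte attractant CCL13 had a log2 fold change of -0.20 ± 0.07 (SE; edgeR adjusted p = 0.145) and CCL8 one of -0.22 ± 0.13 (SE; edgeR adjusted p = 0.491). CCL1 and CCL18, the neighbours farthest from 0, had under 2 CPM on average. None of the tested genes nearest to CCL20 on chromosome 2 passed the threshold either, MFF, AGFG1 and TRIP12 among them.

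Other chemokine genes in the same libraries did pass. Of 21 tested, 5 fell and 0 rose in KD libraries, with a median log2 fold change of -0.20, and 10 had an unadjusted p under 0.05. Of all tested genes 2.83% passed, and 6.89% were higher and 8.21% lower at an unadjusted p under 0.05. Without control replicate 1 a sixth passed in the other direction: CXCL16, a transmembrane chemokine, was then higher in KD libraries by 0.35 on the log2 scale (edgeR adjusted p = 0.0486, against 0.0725 with all 6 libraries). In that fit 3.96% of all tested genes passed. Without control replicate 3 the count past the threshold was also 6, with CXCL16 not among them (edgeR adjusted p = 0.137). CCL22, an IL-4-induced ligand of CCR4, stood at 654, 657 and 663 CPM in KD libraries and at 899, 1052 and 1136 CPM in control libraries, with a log2 fold change of -0.65 ± 0.06 (SE; edgeR adjusted p = 4.49e-05). CCL17, the other CCR4 ligand, stood at 226, 221 and 217 CPM in KD libraries and at 328, 328 and 289 CPM in control libraries (log2 fold change -0.51 ± 0.05, SE; edgeR adjusted p = 4.92e-05). In both, every KD library was below every control library. CXCL13, a B cell attractant, fell by 0.71 ± 0.07 on the log2 scale (SE; edgeR adjusted p = 5.97e-05) and CCL19, a ligand of CCR7, fell by 0.95 ± 0.13 (SE; edgeR adjusted p = 0.000589). The fifth, CCL26, an eotaxin named because it completes the count, fell by 0.79 ± 0.18 (SE; edgeR adjusted p = 0.0293), a call lost without KD replicate 1 or 2 or control replicate 2, at adjusted p of 0.0928, 0.159 and 0.156. Whether the inflammatory chemokines and these genes differed from each other in response was not tested. The lowest bound among the 95% intervals of CCL2, CCL3, CCL4, CCL5 and CXCL8 was -0.23 on the log2 scale, for CXCL8. The intervals of CXCL1, CXCL3 and CXCL2 reached lower, to -0.49, -0.47 and -0.79. Only that of CXCL2 took in the log2 fold changes of CCL17, CCL22 and CXCL13, and none reached that of CCL19. This comparison leaves out the errors of the latter genes and so is no test of a difference. The bounds of CXCL1 and CXCL3 lay within the SE of CCL17 (-0.51 ± 0.05). In summed CPM the other chemokines took 1095 to 1114 in KD libraries and 1498 to 1673 in control libraries, most of it CCL22 and CCL17. Of the 21 tested, 8 had a log2 fold change above 0 and 13 below 0.

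**Figure D4:**
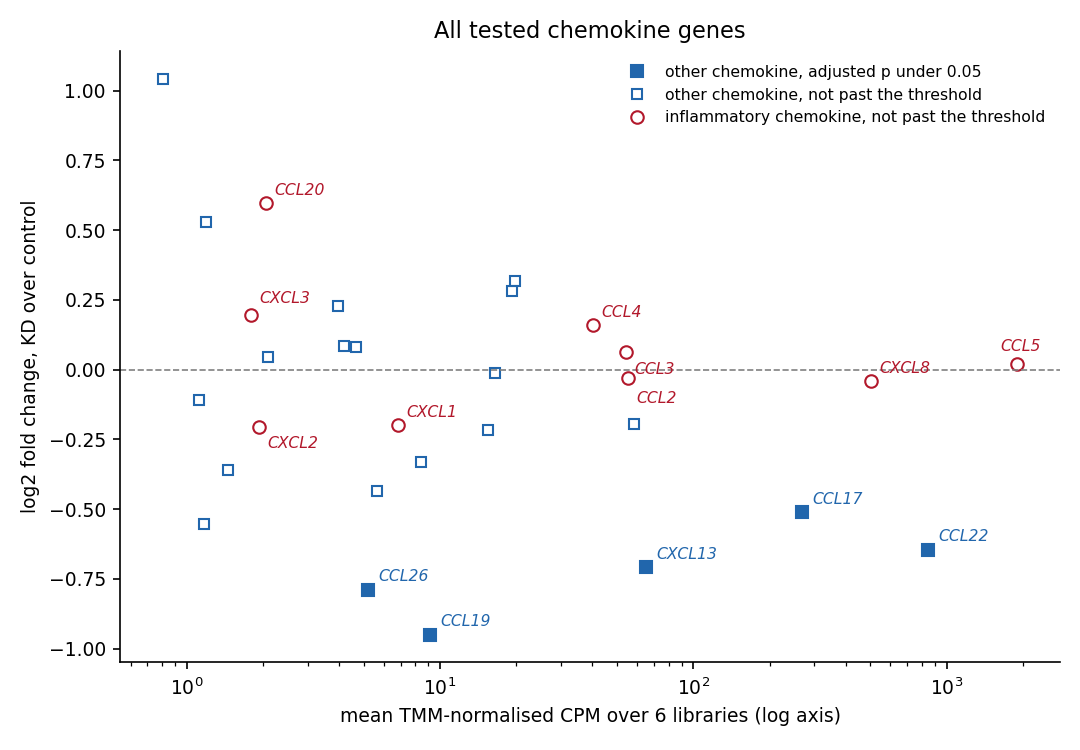
Log2 fold change, KD over control, against the mean TMM-normalised CPM over the 6 libraries (log axis) for the 9 inflammatory chemokine genes (red circles) and the 21 other tested chemokine genes (blue squares, filled where edgeR's adjusted p was under 0.05). The 5 filled squares lie below -0.5, whereas CCL5 and CXCL8, at mean levels of 1898 and 505 CPM, lie close to 0.

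Of the receptors that read these chemokines, 4 of 9 were tested, 1 fell and 0 rose. Of all tested genes 2.83% passed the threshold. CCR2, the receptor of CCL2, stood at 5.67, 5.75 and 6.65 CPM in KD libraries and at 9.07, 9.05 and 9.53 CPM in control libraries. Every KD library was below every control library, and the log2 fold change was -0.61 ± 0.13 (SE; edgeR adjusted p = 0.0151). The call was lost without KD replicate 1, KD replicate 2 or control replicate 2, at adjusted p of 0.0704, 0.0926 and 0.0710. CCR1, which binds CCL3 and CCL5, had 96.9 ± 2.46 CPM in KD libraries and 102 ± 3.67 CPM in control libraries (SD, n = 3 each; edgeR adjusted p = 0.526). Among carriers of the glycosaminoglycan chains that hold chemokines, 1 of 8 fell: SRGN, the proteoglycan core of secretory granules, averaged 517 ± 18.7 CPM in KD libraries and 1140 ± 117 CPM in control libraries (SD, n = 3 each; log2 fold change -1.14, edgeR adjusted p = 2.67e-08). Without control replicate 1 the syndecan SDC2 also passed (edgeR adjusted p = 0.00721, against 0.255 with all 6 libraries), with 1248 ± 11.8 CPM in KD libraries and 1150 ± 77.3 CPM in control libraries (SD, n = 3 each). The share of all genes passing without that library was 3.96%.

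Calls in the upstream machinery are set against 2.83% of all tested genes past the threshold and, at an unadjusted p under 0.05, 6.89% higher and 8.21% lower. Those made without control replicate 1 are set against 3.96% of all genes tested that way. Of 14 genes for NF-kB subunits, kinases and inhibitors, 0 passed the threshold in edgeR, DESeq2 or limma-voom, and 4 had an unadjusted p under 0.05 in edgeR. Without control replicate 1, 3 of them passed, all lower in KD libraries and named after their values were seen: NFKB2 (log2 fold change -0.21, edgeR adjusted p = 0.00999), REL (-0.19, adjusted p = 0.0155) and BCL3 (-0.18, adjusted p = 0.0498). With all 6 libraries their log2 fold changes were -0.18, -0.16 and -0.07, at edgeR adjusted p of 0.0629, 0.0792 and 0.738. A replicate block in edgeR gave 1 call among the 14 genes and 488 among all 13405 tested genes. The inhibitor NFKBIA averaged 319 ± 4.80 CPM in KD libraries and 347 ± 16.2 CPM in control libraries (SD, n = 3 each), with every KD library below every control library and an edgeR adjusted p of 0.190. TNFAIP3, the feedback inhibitor A20, averaged 312 ± 4.26 CPM in KD libraries and 299 ± 6.72 CPM in control libraries (edgeR adjusted p = 0.566). For TNFAIP3 every KD library was above every control library. Separation of the groups in either direction was seen for 20% of all tested genes. Of 19 upstream receptors and adaptors 3 rose and 0 fell, and 8 had an unadjusted p under 0.05. Those that rose were CD14, the lipopolysaccharide co-receptor, by 0.34 ± 0.06, TLR2, a receptor of bacterial lipoproteins, by 0.27 ± 0.05, and IL1R1, the interleukin-1 receptor, by 0.24 ± 0.06 on the log2 scale (SE; edgeR adjusted p = 0.00300, 0.0109 and 0.0490). The call of IL1R1 was lost on leaving out any library but control replicate 3, at adjusted p from 0.0758 to 0.226, in limma-voom (0.0532) and with no filter on low counts (0.0655), and that of TLR2 without KD replicate 2 or 3 or control replicate 2, at 0.0882, 0.0876 and 0.0704. Of 13 AP-1 and C/EBP genes 0 passed in edgeR, with 2 at an unadjusted p under 0.05, while DESeq2 and limma-voom each called 1. That gene was FOSL2, an AP-1 subunit, which averaged 341 ± 18.5 CPM in KD libraries and 385 ± 3.27 CPM in control libraries (SD, n = 3 each), with adjusted p of 0.0529 in edgeR, 0.0190 in DESeq2 and 0.0477 in limma-voom, and of 0.0275 in edgeR without control replicate 1.

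Among 15 other inflammatory genes induced by NF-kB, 3 fell and 0 rose, with a median log2 fold change of 0.02. In edgeR 5 of the 15 had an unadjusted p under 0.05. Of all tested genes 2.83% passed the threshold, and 6.89% were higher and 8.21% lower at an unadjusted p under 0.05. BIRC3, an inhibitor of apoptosis that ubiquitinates components of the pathway, stood at 164, 164 and 173 CPM in KD libraries and at 259, 236 and 233 CPM in control libraries (log2 fold change -0.54 ± 0.05, SE, with an edgeR adjusted p of 2.87e-05). The groups did not overlap. CD83, a surface protein of activated antigen-presenting cells, and SOD2, the mitochondrial superoxide dismutase, both had a log2 fold change of -0.26 (SE 0.04 and 0.05; edgeR adjusted p = 0.00299 and 0.00501). Of 16 genes for binding and decay of AU-rich mRNAs, 1 fell and 0 rose: DUSP1, a phosphatase of the p38 and JNK kinases, averaged 30.1 ± 1.22 CPM in KD libraries and 37.6 ± 2.68 CPM in control libraries (SD, n = 3 each; edgeR adjusted p = 0.0266). Its call was lost without KD replicate 1, 2 or 3 or control replicate 2, at adjusted p of 0.0887, 0.0857, 0.132 and 0.166. Without control replicate 1, ZFP36L1, an AU-rich element binding protein, passed as well, lower by a log2 fold change of -0.15 (edgeR adjusted p = 0.0475). The share of all genes passing in that fit was 3.96%.

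The cell type labels were checked against marker genes. Calls are set against 2.83% of all tested genes past the threshold, or 3.96% without control replicate 1. At an unadjusted p under 0.05 in edgeR, 6.89% of all tested genes were higher and 8.21% lower. All 12 macrophage markers were tested and summed to between 5561 and 5747 CPM in KD libraries and between 5504 and 5871 CPM in control libraries, with 2 higher (CD14 and ITGAX) and 1 lower (LYZ, lysozyme, with a log2 fold change of -0.40 ± 0.06, SE, and an edgeR adjusted p of 0.000928) in KD libraries. ITGAX, the integrin CD11c, was higher by 0.23 ± 0.05 (SE; edgeR adjusted p = 0.0146), a call lost without KD replicate 2 or 3 or control replicate 2, at 0.121, 0.102 and 0.0594. Of the T and NK cell markers, CD3D, CD3E, CD3G, CD2 and CD8A were not analysed here, and the list's sum of 358 to 373 CPM in KD libraries and 376 to 404 CPM in control libraries was nearly all CD4, which macrophages also express. TRAC, the T cell receptor alpha constant gene, was higher in KD libraries, at 7.55 ± 0.437 CPM against 5.06 ± 0.551 CPM in control libraries (SD, n = 3 each; edgeR adjusted p = 0.0409), and this call was lost on leaving out any library but control replicate 3, at adjusted p from 0.0807 to 0.175. Without control replicate 1 CD4 passed instead (edgeR adjusted p = 0.0428, against 0.192 with all 6 libraries), at 349 ± 7.98 CPM in KD libraries and 379 ± 13.8 CPM in control libraries (SD, n = 3 each). B cell markers summed to 5.99 to 7.61 CPM in KD libraries and 5.86 to 6.62 CPM in control libraries, and 0 of 2 tested passed or had an unadjusted p under 0.05 in edgeR. Neutrophil and granulocyte markers summed to 85.8 to 90.1 CPM in KD libraries and 90.4 to 101 CPM in control libraries, with 0 of 5 past the threshold in edgeR and 1 at an unadjusted p under 0.05. Fibroblast, endothelial and epithelial markers summed to 664 to 708 CPM in KD libraries and 687 to 740 CPM in control libraries, nearly all of it PECAM1, which monocytic cells also carry, and 0 of 4 passed or had an unadjusted p under 0.05 in edgeR. DESeq2 and limma-voom called 0 genes of these 3 lists as well. The part of any of these differences in the chemokine values was not tested. Of 13 tested genes of cellular stress and of the response to siRNA 1 fell and 0 rose: HSPA1B, a heat shock protein whose reads are shared with its near-identical copy HSPA1A, averaged 75.3 ± 3.22 CPM in KD libraries and 87.6 ± 3.78 CPM in control libraries (SD, n = 3 each; edgeR adjusted p = 0.0449), a call not made by DESeq2 (0.0565), limma-voom (0.0522), edgeR with upper-quartile normalization (0.0502) or edgeR with no filter on low counts (0.0604), and that was lost on leaving out any library but control replicate 1, at 0.0958 to 0.218.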

How the data were processed

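RNA sequencing of polyadenylated RNA in 6 libraries, grouped by their titles, was read from a deposited table of expected counts per gene symbol, all of them whole numbers, with no row summing to under 10. The build hg38 and the tools Salmon 0.11.2 and DESeq2 appear, without roles, per the submitters' processing notes. Salmon divides reads of shared sequence between genes by estimation. The strand setting was not given in the sources used here.

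The deposited counts went as they stand into the quasi-likelihood test of edgeR 4.0.16 in R 4.3.3, with filterByExpr, TMM factors and group as the term. Tests were two-sided, with Benjamini-Hochberg adjustment over all tested genes and a threshold of 0.05. The SE is the log2 fold change divided by the square root of F. DESeq2 1.42.0, limma-voom (limma 3.58.1), other normalizations and filters, a replicate block, summed copies and leaving out each library were alternatives. The procedure was tested on simulated data. Within groups, no pair of libraries agreed within the noise of read sampling (chi-square of 1.90 to 6.79 per degree of freedom), and each was counted as 1 sample.

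The members and the 14 other lists were chosen with earlier results of these data known, so no count over them is independent evidence. Named beside the members are up to 4 genes a list, those past the threshold with the smallest p, filled up by level to 2, and the 5 nearest profiles. Counting errors cover sampling of reads only.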

Additional observations from a re-analysis of the deposited data

How the results depend on the processing

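The count of chemokine genes past the threshold was 0 under RLE and upper-quartile normalization, both other filters, DESeq2, limma-voom, summed copies and the replicate block, and ran from 0 to 1 on leaving out 1 library, the 1 being CCL4 without control replicate 1. The count at an unadjusted p under 0.05 was 0 in DESeq2, where 4 members had no adjusted p, and ran from 0 to 3 on leaving out 1 library. The count of genes with no overlap, which was not computed for DESeq2 or limma-voom, ran from 1 to 4. On leaving out 1 library the log2 fold change ran from -0.0998 to 0.0688 for CCL2 (above 0 without KD replicate 2 or control replicate 2), from -0.0397 to 0.194 for CCL3 and from -0.0133 to 0.0434 for CCL5 (both below 0 without KD replicate 2 or control replicate 3), from -0.11 to 0.38 for CXCL3 (below 0 without KD replicate 1) and from -0.14 to 0.13 for CXCL8 (above 0 without control replicate 1). CXCL3 summed with CXCL1 and CXCL2 stood at -0.13. The 18 genes past the threshold among 148 of the other lists became 10 to 25, with 25 without control replicate 1 and 19 without control replicate 3. Over all genes, 379 passed, against 139 (without KD replicate 2) to 542 (without control replicate 1). Leaving out control replicate 3 also raised the count, to 488. Same-numbered libraries of the groups correlated at 0.0464, 0.09996 and 0.0830. All were under 0.1 and so too weak to treat the numbers as pairs, although each library correlated best with its own number. With the replicate block 0 chemokine genes, 20 list genes and 488 of all genes passed. In DESeq2 3 of the 5 other chemokines passed and CCL19, CCL26, CCR2 and TRAC had no adjusted p. The causes were not tested. Depth limits CCL20, CXCL2 and CXCL3, whose intervals span over 1 log2 unit.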
